A study of Mus musculus with 31 samples.

Results

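Cells take up iron, store it in ferritin and release it through a dedicated exporter, and 9 genes of these steps were measured in tumors and cultures of a mouse melanoma treated with glucocorticoid (GC). The genes were *Tfrc*, *Trf*, *Slc11a2*, *Scara5* and *Lcn2* for uptake, *Fth1* and *Ftl1* for storage, and *Slc40a1* and *Cp* for export, 9 of the 39179 genes counted. They were chosen by measured values of these same samples: over the 8 groups, *Slc40a1* was selected on its fall with drug, and *Scara5* and *Cp* on their difference between genotypes. Every comparison of these 3 genes shares samples with the values that selected them, so all of theirs are given below as descriptions, without a test, and tests are given for the other 6.

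The study asked how GC acts on melanoma and whether the cancer cell's own glucocorticoid receptor (GR) is needed, and RNA was sequenced from 20 whole tumors and 11 cultures. The 20967 line is a melanoma line from mice of C57BL/6 background with *Nras*+LSL-G12D;*Tyr*::CreERT2+/o, an inducible activated *Nras* allele and a Cre driven by the tyrosinase promoter, which is active in melanocytes. GR KO cells came from the same line by CRISPR-Cas9 editing of *Nr3c1*, the gene of GR, and are 1 clone, so that loss of GR and other properties of that clone cannot be told apart. Sequencing read the 3′ end of each mRNA.

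*In vivo*, the 4 groups of 5 tumors each were parental control, parental GC, GR KO control and GR KO GC tumors. All grew in the skin of wild-type C57BL/6 mice, whose own cells carry intact *Nr3c1* in every group. The GC was clobetasol propionate 0.05% ointment applied 3 times a week, and the methods name a plain emollient cream as control. The mice's age and the day of harvest were not given for these samples in the sources used here. Cells of both genotypes were also kept *in vitro* for 48 hours with the solvent DMSO (3 cultures each) or with clobetasol propionate (2 parental and 3 GR KO cultures). For the cultures the treatment label gives 10 µM and the library names give 1 µM, and the dose is left at that.

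Iron reaches most cells bound to transferrin (*Trf*), which the transferrin receptor (*Tfrc*) carries into endosomes, where the divalent metal transporter *Slc11a2* moves the metal into the cytosol. Surplus iron is held in ferritin, a shell of heavy (*Fth1*) and light (*Ftl1*) chains, and leaves the cell through ferroportin (*Slc40a1*), assisted by the ferroxidase ceruloplasmin (*Cp*). Tissue macrophages are known for recycling iron from red cells through ferroportin, and iron regulatory proteins that bind stem-loops in the mRNAs of several of these genes set ferritin and receptor synthesis by the cell's iron status.

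Total counts ran from 15528066 to 26386770 per tumor and from 14441166 to 22463188 per culture. Levels are CPM, counts scaled to a common library total with TMM factors over all 31 libraries. At these depths 3 counts, treated here as the floor of detection, correspond to between 0.114 and 0.208 CPM in 1 library, and floors and intervals cover counting error only. Tests are edgeR's quasi-likelihood test with Benjamini-Hochberg adjustment over all genes tested, 15919 in tumors, 12525 in cultures and 16273 over both. A gene was called when its adjusted p was under 0.05 and its fold change at least 1.5. Standard errors (SE) are of log2 fold changes.

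The edited gene *Nr3c1* was read first. It stood at 62.8, 57.6, 43.9, 55.9 and 50.5 CPM in parental control tumors 1 to 5 and at 54.2, 23.5, 48.4, 36.4 and 49.6 CPM in parental GC tumors. In GR KO tumors it stood at 20.3, 26.7, 31.2, 33.6 and 23.3 CPM with control and at 47.3, 21.4, 57.7, 31.7 and 46.9 CPM with GC. The GR KO control tumors were all below the parental control tumors (log2 fold change -1.02, SE 0.243, edgeR adjusted p = 0.0313), whereas the GC-treated groups overlapped (log2 -0.02, adjusted p = 0.981).

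In cultures *Nr3c1* measured 33.9, 30.6 and 36.3 CPM in parental DMSO cells, 40.6 and 34.2 CPM in parental GC cells, 25.8, 21.6 and 16.6 CPM in GR KO DMSO cells and 21.4, 22.4 and 12.9 CPM in GR KO GC cells. The GR KO DMSO cultures were all below the parental DMSO cultures (log2 -0.67, SE 0.218, edgeR adjusted p = 0.0840). Transcripts were still counted in GR KO cultures, and tags from the 3′ end of an mRNA do not show a small edit, so these values do not check the knockout. *Tsc22d3*, a direct target of GR, shows where the drug acted. Its mean rose from 13.8 to 118 CPM in parental cells (log2 3.09, SE 0.201, edgeR adjusted p = 2.28e-05), against 18.4 and 17.4 CPM in GR KO cells (log2 -0.05, SE 0.179, adjusted p = 0.984). In whole tumors *Tsc22d3* rose in both genotypes, from 71.0 to 361 CPM in parental tumors (adjusted p = 1.61e-05) and from 66.2 to 220 CPM in GR KO tumors (adjusted p = 0.000403).

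The label melanoma was checked against 8 melanocyte markers. Their summed level was 11.7 CPM in parental DMSO cells and 4.15 CPM in GR KO DMSO cells, most of it *Mitf*, while *Mlana*, *Tyr*, *Dct* and *Sox10* were at 0 in every culture and *Tyr* was at 0 in every tumor as well. In tumors the sum was 60, 77.9, 51.3 and 51.4 CPM in parental control, parental GC, GR KO control and GR KO GC groups, of which *Mitf* made up 32.3, 41.8, 26 and 32.6 CPM. With GC in parental tumors 4 of the 6 tested markers had negative log2 values (median -0.99), and 0 were called (against 0.779% of all genes). Between GR KO and parental DMSO cells 2 markers were tested, *Mitf* and *S100b*. Of these edgeR called *Mitf* lower in GR KO cells, against 8.22% of all genes. *S100b*, also called lower, entered the test through parental cultures alone, where it is high, so its call is no support. *Mitf* stood at 10.3 CPM in parental and 4.07 CPM in GR KO DMSO cells, and *S100b* was at 0 in the latter.

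All 9 genes passed the low-count filter in tumors and 7 did in cultures, where *Lcn2* and *Trf* did not. Of the 6 genes not selected on their own values, edgeR called 0 for GC in parental tumors, where 0.779% of all genes were called, with 1 at an unadjusted p under 0.05 and 0 called by DESeq2. In GR KO tumors GC changed 0 of 6 by edgeR, where 6.42% of all genes were called, with 2 at an unadjusted p under 0.05 and 2 called by DESeq2. The difference between the 2 GC effects was called by edgeR for 0 of 6 genes (background 0.195%), with 1 at an unadjusted p under 0.05 and 0 by DESeq2. Between genotypes edgeR called 0 of 6 genes in control tumors (background 2.25%; 1 at an unadjusted p under 0.05, 0 by DESeq2). Under GC it called 0 of 6 between genotypes (background 0.634%), with 2 at an unadjusted p under 0.05 and 1 by DESeq2. These backgrounds are shares of edgeR calls. Over all 15919 genes, 2249, 3893, 3192, 3180 and 1816 were at an unadjusted p under 0.05 in these comparisons, in the order given. DESeq2 called 378, 1779, 817, 1004 and 289.

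In cultures edgeR called 0 of the 4 such genes that passed the filter for GC in parental cells, where 0.878% of all genes were called, with 0 at an unadjusted p under 0.05 and 0 by DESeq2. In GR KO cells GC changed 0 of 4 by edgeR, with 0 at an unadjusted p under 0.05 and 0 by DESeq2, and the background was 0.00% of 12525 genes. The difference of GC effects was called for 0 of 4 genes by edgeR (background 0.295%), with 0 at an unadjusted p under 0.05 and 0 by DESeq2. Between GR KO and parental DMSO cells edgeR called 0 of 4 (background 8.22%), with 3 at an unadjusted p under 0.05 and 1 by DESeq2. Over all 12525 genes, 1062, 237, 1075 and 3037 were at an unadjusted p under 0.05 in these comparisons, in the order given. DESeq2 called 251, 0, 128 and 1424. Against cultures of the same genotype, control tumors differed in 4 of 6 genes in the parental line (background 46.7%) and in 5 of 6 in GR KO (background 54.8%). *Lcn2* and *Trf*, in both counts, entered these tests through tumors alone, where they are high, so that their calls are no support. A tumor holds host cells that a culture lacks, and their part in these counts was not tested. The number of all genes called depended on single libraries: without GR KO control tumor 4 it went from 1022 to 2411 for GC in GR KO tumors, from 31 to 1284 for the difference of GC effects and from 358 to 1762 between control tumors, and without GR KO GC tumor 3 the first was 303.

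**Figure D1:**
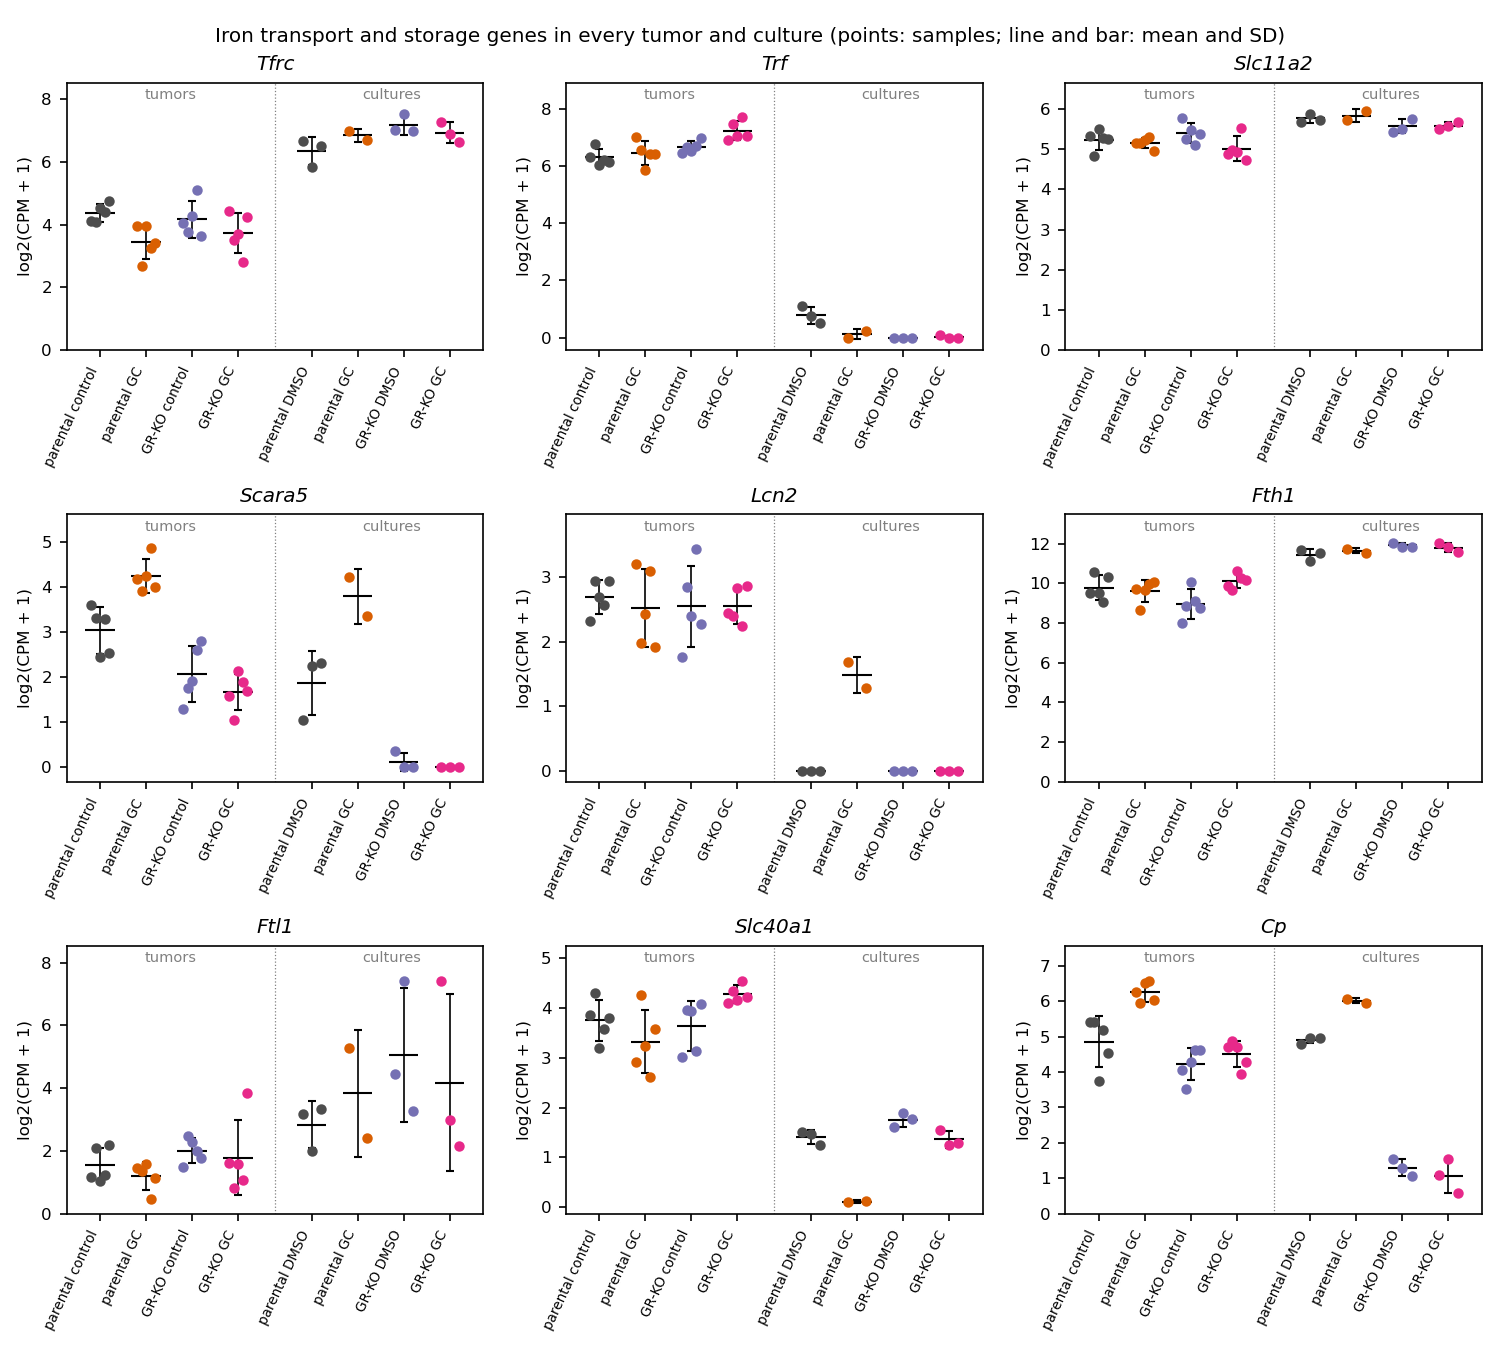
Level of each gene, as log2(CPM + 1), in every tumor and culture of the 8 groups; each point is 1 sample, and the line and bar give the mean and SD of its group. *Tfrc* and *Fth1* sit higher in cultures than in control tumors, *Trf* is near 0 in cultures, and *Cp* and *Scara5* are higher in parental GC than in parental control samples both in tumors and in cultures.

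*Tfrc*, the receptor that imports transferrin-bound iron, stood at 16.4, 16.1, 22.2, 20 and 26.2 CPM in parental control tumors and at 14.5, 5.39, 14.5, 8.61 and 9.60 CPM in parental GC tumors. All 5 parental GC tumors lay below all 5 controls, with a log2 fold change of -0.95 (SE 0.335) that missed the threshold (edgeR adjusted p = 0.195). In bulk RNA, fewer cells of a type and less RNA per cell cannot be told apart. Tumors of GR KO cells had 15.7, 12.5, 18.2, 33.3 and 11.5 CPM with control and 20.7, 10.3, 11.9, 6.04 and 17.9 CPM with GC. These groups overlapped (log2 -0.40, SE 0.333, edgeR adjusted p = 0.485), and the GC effects of the genotypes were not told apart (difference -0.55, SE 0.470, adjusted p = 0.521). Endothelial markers summed to 57.4, 32.0, 98.3 and 48.2 CPM in parental control, parental GC, GR KO control and GR KO GC tumors, *Kdr* being the most abundant and none of the 5 at 0. With GC all 5 had negative log2 values in both genotypes. Of these edgeR called 0 in parental tumors (against 0.779% of all genes) and only *Kdr*, lower, in GR KO tumors (against 6.42%). Among control tumors *Kdr* was also called higher in the GR KO group (against 2.25%). Their part in the *Tfrc* values was not tested.

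Cultured cells held more *Tfrc* message: 101, 56.0 and 89.2 CPM in parental DMSO cells, 125 and 103 CPM in parental GC cells, 128, 181 and 124 CPM in GR KO DMSO cells and 154, 116 and 97.3 CPM in GR KO GC cells. Every culture was above every tumor. All 3 GR KO DMSO cultures were above the parental DMSO cultures by a log2 fold change of 0.80 (SE 0.237, edgeR adjusted p = 0.0593), a difference called by DESeq2 (adjusted p = 0.0169) and, without a low-count filter, by edgeR (adjusted p = 0.0164). GC gave log2 fold changes of 0.47 (SE 0.262, edgeR adjusted p = 0.666) in parental and -0.21 (SE 0.235, adjusted p = 0.976) in GR KO cells. Compared with cultures of their genotype, control tumors held less *Tfrc* by log2 -2.02 (SE 0.335, edgeR adjusted p = 9.16e-06) in the parental line and by log2 -2.98 (SE 0.340, adjusted p = 1.10e-08) in GR KO, with all 5 tumors below all 3 cultures each time.

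*Trf*, which encodes the iron carrier of plasma, was a tumor transcript. It measured 78.2, 109, 65.1, 73.2 and 70.0 CPM in parental control tumors and 127, 92.6, 57.1, 84.2 and 84.8 CPM in parental GC tumors, and these overlapped (log2 0.17, SE 0.208, edgeR adjusted p = 0.769). The GR KO tumors measured 85.7, 101, 91.4, 102 and 126 CPM with control and 118, 175, 132, 209 and 131 CPM with GC. Of the 5 GR KO GC tumors, 4 exceeded every GR KO control (log2 0.63, SE 0.208, edgeR adjusted p = 0.0707), which DESeq2 called (adjusted p = 0.0456), as did edgeR on genes with at least 10 counts in every sample (adjusted p = 0.0443). Between the same 2 groups the fibroblast markers summed to 4924 and 9471 CPM, the 6 adipocyte markers to 148 and 70.4 CPM (most abundant *Cfd*, 117 and 46.2 CPM) and the 8 keratinocyte markers to 2962 and 1673 CPM (*Krt14*, 2256 and 832 CPM), none of them at 0. Of the 9 fibroblast markers 7 had positive log2 values, and edgeR called 4 higher (*Col1a1*, *Col1a2*, *Col3a1* and *Pdgfra*) and *Pi16* lower. Most of the lower adipocyte sum was *Cfd*, the only one of the 6 called, and 2 of the 6 had positive log2 values. The keratinocyte markers did not move together, with 4 of 8 at a positive log2 value and 3 called by edgeR (against 6.42% of all genes), of which *Krt1* and *Krt10* rose and *Krt14* fell. Their part in the *Trf* values was not tested.

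Under GC, *Trf* was higher in GR KO than in parental tumors by log2 0.80 (SE 0.209, edgeR adjusted p = 0.0780). DESeq2 called that genotype difference (adjusted p = 0.0212), and edgeR did without parental GC tumor 1, the highest of its group (log2 0.95, adjusted p = 0.0315). The GC effects on *Trf* did not pass as different between genotypes (log2 -0.46, SE 0.294, adjusted p = 0.386).

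In cultures *Trf* counts were 17, 11 and 7 in parental DMSO cells, 0 and 4 in parental GC cells, 0 in all 3 GR KO DMSO cultures, and 1, 0 and 0 in GR KO GC cells. Parental control tumors were above parental DMSO cells by log2 6.73 (SE 0.400). GR KO control tumors, with a mean of 101 CPM, were at least 1936-fold above GR KO DMSO cells, taking 3 counts over that group as the floor. By the same floor, *Trf* in parental DMSO cells was at least 14.2-fold above GR KO DMSO cells, as a description, since only 2 cultures, both parental DMSO, reached 0.5 CPM.

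*Slc11a2*, which passes iron across the endosomal membrane, varied little. Its group means in tumors ran from 31.9 CPM in GR KO GC to 41.7 CPM in GR KO control tumors, and in cultures from 46.7 CPM in GR KO DMSO to 56.4 CPM in parental GC cells. GC gave log2 fold changes of -0.10 (SE 0.192, edgeR adjusted p = 0.869) in parental tumors and -0.36 (SE 0.192, adjusted p = 0.255) in GR KO tumors, and of 0.07 and 0.05 in parental and GR KO cells. Parental control tumors were all below parental DMSO cells, by less than the minimum fold change of 1.5 (log2 -0.53, SE 0.183, edgeR adjusted p = 0.0168). Without parental control tumor 5 the difference reached log2 -0.59 (edgeR adjusted p = 0.0174) and would be called. Without parental DMSO culture 2 it was log2 -0.47 (edgeR adjusted p = 0.0751). In GR KO, control tumors and DMSO cells overlapped (log2 -0.16, SE 0.184, edgeR adjusted p = 0.456).

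*Scara5*, a scavenger receptor that takes up ferritin, stood at 11.1, 8.91, 4.42, 8.81 and 4.76 CPM in parental control tumors and at 17.1, 14, 17.8, 27.9 and 15 CPM in parental GC tumors. Levels in GR KO tumors were 1.44, 2.39, 2.78, 5.02 and 5.91 CPM with control and 1.98, 1.06, 3.39, 2.69 and 2.20 CPM with GC. The parental GC tumors were above every other tumor, and the GR KO GC tumors were all below the parental control tumors. With GC the log2 fold change was 1.28 (SE 0.378) in parental tumors and -0.59 (SE 0.384) in GR KO tumors.

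Parental DMSO cells had 1.06, 3.76 and 3.95 CPM of *Scara5*, and parental GC cells 17.6 and 9.26 CPM. GR KO cells had 5, 0 and 0 counts in DMSO and 0 counts in all 3 cultures with GC. Both GC-treated parental cultures were above the 3 DMSO cultures (log2 2.18, SE 0.717), and the only counts in GR KO cells came from 1 culture. As a description of the values that selected it, *Scara5* in GR KO against parental samples had log2 fold changes of -1.12 (SE 0.382) in control tumors, -3.00 (SE 0.404) in GC tumors and -4.97 (SE 0.947) in DMSO cells. The last became -8.69 without GR KO DMSO culture 1, when the group is at 0 and the fitted value is no longer a measure of size. In GC cells the parental mean of 13.5 CPM was at least 244-fold above the GR KO group, again with 3 counts over the group as floor. The parental GC effect on *Scara5* exceeded the GR KO effect by log2 1.87 (SE 0.538) in tumors. Fibroblast markers summed to 7159 CPM in parental and 4924 CPM in GR KO control tumors. Of 9, 8 had negative log2 values in GR KO and only *Col3a1* was called, lower (against 2.25% of all genes). In GC tumors these markers summed to 9666 CPM in parental and 9471 CPM in GR KO tumors. There 4 had positive and 5 negative log2 values in GR KO, and 0 were called (against 0.634% of all genes). Their part in the *Scara5* values was not tested.

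*Scara5* and *Cp* are both on the study's own list of GC-induced genes, which was drawn up on these samples, so their values with GC are not independent evidence. Between control tumors and DMSO cells the log2 fold change of *Scara5* was 1.37 (SE 0.564) in the parental line and 5.22 (SE 0.793) in GR KO, with all 5 tumors above all 3 cultures each time. The parental value ran from 0.97 without parental DMSO culture 1 to 1.65 without culture 3, and the GR KO value rests on 5 counts in 1 culture.

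*Lcn2*, which binds iron-loaded siderophores, stood at 3.97, 6.68, 5.48, 4.89 and 6.67 CPM in parental control tumors and at 8.19, 2.92, 4.35, 7.55 and 2.78 CPM in parental GC tumors. The GR KO tumors had 2.38, 6.18, 4.27, 9.83 and 3.84 CPM with control and 4.45, 4.26, 6.12, 3.72 and 6.25 CPM with GC. All 4 groups overlapped, with log2 fold changes for GC of -0.11 (SE 0.386, edgeR adjusted p = 0.933) and -0.05 (SE 0.387, adjusted p = 0.953).

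In cultures *Lcn2* was counted in a single group: 31 counts in each of the 2 parental GC cultures (2.20 and 1.44 CPM) and 0 in the other 9 cultures. With 3 counts over the group as the floor, parental GC cells were at least 28.9-fold above parental DMSO cells. A gene found in 2 cultures alone cannot pass the filter of 3 samples, and this value is a description. All control tumors were above the DMSO cells of their genotype, at least 88.0-fold in the parental line and at least 101-fold in GR KO. *Lcn2* is also abundant in neutrophils, whose 10 markers summed to 169, 614, 807, 197 and 2044 CPM in parental control tumors, the last far above the others, with *Mmp9* the most abundant by group mean. The sums ran from 116 to 292 CPM in parental GC, from 319 to 1195 CPM in GR KO control and from 111 to 384 CPM in GR KO GC tumors, and *Ly6g* was at 0 in all 4 groups. With GC 1 of 8 tested neutrophil markers had a positive log2 value in parental tumors. There edgeR called *S100a8* and *S100a9* lower, against 0.779% of all genes called. In GR KO tumors 2 of 8 were positive and edgeR called 0, against 6.42% of all genes. In parental GC cells that sum was 0.294 CPM and 7 of the 10 markers, among them *S100a9*, *Cxcr2* and *Ly6g*, were at 0. The part of neutrophils in the tumor values was not tested.

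*Fth1*, the ferritin heavy chain with the ferroxidase site, was counted in every library with at least 3589 counts. It stood at 721, 1505, 727, 525 and 1279 CPM in parental control tumors and at 846, 403, 797, 1016 and 1074 CPM in parental GC tumors, which overlapped (log2 -0.21, SE 0.332, edgeR adjusted p = 0.829). Levels in GR KO tumors were 259, 458, 1079, 559 and 429 CPM with control and 945, 799, 1575, 1249 and 1150 CPM with GC. Every GR KO GC tumor was above 4 of the 5 GR KO controls, and control tumor 3 lay among the GC-treated ones.

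The *Fth1* difference in GR KO tumors, log2 1.07 (SE 0.336), narrowly missed the threshold by edgeR (adjusted p = 0.0558). It was called by DESeq2 (adjusted p = 0.0174), with at least 10 counts in every sample (edgeR adjusted p = 0.0400), with the replicate block (0.0453), without GR KO control tumor 3 (log2 1.47, 0.0127) and without GR KO GC tumor 2 (log2 1.18, 0.0455). Leaving out each of the 10 tumors in turn gave adjusted p-values from 0.0127 to 0.152. The parental GC effect was lower than the GR KO one by a log2 difference of -1.28 (SE 0.472) that did not pass (edgeR adjusted p = 0.148). Macrophage markers, 11 of 12 in the file, summed to 7043 CPM in GR KO control and 5174 CPM in GR KO GC tumors (*C1qa* 4622 and 2754 CPM), with none at 0 in either group. Nearly all of the lower sum was *C1qa*, which was not called, while 6 of the 11 had positive log2 values (median 0.03) and the only one called (against 6.42% of all genes), *Mrc1*, rose. Fibroblast markers summed to 4924 and 9471 CPM (most abundant *Col1a1*, 2012 and 3059 CPM), and none of the 9 was at 0; 7 had positive log2 values, 4 were called higher and 1 lower. T cell markers summed to 114 and 54.1 CPM (most abundant *Cd3d*, 45.4 and 18.6 CPM), all 7 with negative log2 values and *Cd3d* and *Foxp3* called. Muscle markers summed to 461 and 298 CPM (*Acta1*, 328 and 208 CPM), all 6 with negative log2 values and *Myh4* called, and B cell markers to 8.50 and 3.83 CPM, with *Cd79b* alone tested and not called and *Cd79a* at 0 in both groups. Their part in the *Fth1* values was not tested.

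In cultures *Fth1* stood at 3225, 2234 and 2996 CPM in parental DMSO, 3368 and 2975 CPM in parental GC, 4252, 3674 and 3699 CPM in GR KO DMSO and 4109, 3577 and 3034 CPM in GR KO GC cells. The GR KO DMSO cultures were all above the parental DMSO cultures, by log2 0.45 (SE 0.160, edgeR adjusted p = 0.109), and GC gave log2 0.16 (SE 0.178, adjusted p = 0.762) and -0.09 (SE 0.159, adjusted p = 0.976) in parental and GR KO cells. Control tumors held less *Fth1* than DMSO cells of their genotype, by log2 -1.57 (SE 0.336, edgeR adjusted p = 0.000276) in the parental line and log2 -2.80 (SE 0.341, adjusted p = 3.75e-08) in GR KO, with every tumor below every culture.

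*Ftl1*, the ferritin light chain, can hardly be read from these counts. It ranged from 8 to 3442 counts per library, with 389, 3442 and 159 counts in the 3 GR KO DMSO cultures and 2876, 145 and 55 counts in the 3 GR KO GC cultures. Its transcript end matches 11 other annotated genes at 95% identity or more over at least 100 bases, of which 4 are pseudogenes, and all 11 are in the file with 12 to 1013 counts summed per library. The 2 cultures with the most *Ftl1* counts also had the most on these copies, 1013 and 846. How reads that match several copies were handled is not given beyond default settings, so the values are uncertain, and no GC or genotype contrast passed. *Ftl1* was called lower in GR KO control tumors than in GR KO DMSO cells (log2 -4.39, SE 0.978, edgeR adjusted p = 0.000337) and not in the parental line (log2 -1.66, SE 0.951, adjusted p = 0.150). Without GR KO DMSO culture 2 the former was log2 -2.25 (adjusted p = 0.0499), and fitted on its 2 groups alone the latter was called (adjusted p = 0.0123).

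*Slc40a1*, which encodes ferroportin, the iron exporter, stood at 13.5, 18.7, 8.15, 11 and 13.0 CPM in parental control tumors and at 6.58, 18.2, 8.39, 5.15 and 10.9 CPM in parental GC tumors. The GR KO tumors had 7.14, 14.6, 14.3, 7.83 and 15.9 CPM with control and 16.2, 19.3, 16.8, 22.4 and 17.7 CPM with GC. The parental groups overlapped, with 2 GC tumors below all controls, while all 5 GR KO GC tumors lay above all 5 GR KO controls. The log2 fold changes with GC were -0.38 (SE 0.322) in parental and 0.65 (SE 0.322) in GR KO tumors, given without a test, a difference of -1.03 (SE 0.456). In parental tumors the value was -0.74 without GC tumor 2, whose level is the highest of its group.

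In cultures *Slc40a1* had 28, 28 and 23 counts in parental DMSO cells (1.86, 1.76 and 1.38 CPM) and 1 and 2 counts in parental GC cells (0.0709 and 0.0926 CPM). In GR KO cells it stood at 2.05, 2.70 and 2.40 CPM with DMSO and at 1.93, 1.37 and 1.44 CPM with GC. Both parental GC cultures were far below every other culture, and the 3 GR KO GC cultures were just below the GR KO DMSO cultures. With 79 counts over the parental DMSO cultures and 3 over the GC cultures, the ratio of DMSO to GC was 19.7, with a 95% counting interval from 6.51 to 97.7 that leaves out the spread between cultures. In GR KO cells, with 137 counts over the DMSO and 85 over the GC cultures, the ratio was 1.53. Its 95% counting interval ran from 1.16 to 2.03 and also leaves out that spread. The fall with drug is what selected *Slc40a1*, so both intervals are descriptions and not tests. The fitted log2 fold change with GC in GR KO cells was -0.57 (SE 0.353).

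Between genotypes, *Slc40a1* in GR KO against parental samples had log2 fold changes of 0.92 (SE 0.324) in GC tumors, -0.11 (SE 0.322) in control tumors and 0.51 (SE 0.354) in DMSO cells, where all 3 GR KO cultures were above the parental ones. Control tumors were above DMSO cells by log2 2.95 (SE 0.395) in the parental line and log2 2.32 (SE 0.378) in GR KO, all 5 tumors above all 3 cultures each time. Macrophage markers, which summed to 4519 and 6091 CPM in parental control and GC tumors, were at 2.75 and 2.79 CPM in parental and GR KO DMSO cells, where *Mrc1*, *Cd163*, *Vsig4*, *Timd4*, *Marco* and *Spic* were at 0. In parental GC cells the macrophage sum was 2.08 CPM. With GC in parental tumors 8 of 11 macrophage markers had positive log2 values and 0 were called (against 0.779% of all genes). In GR KO tumors they summed to 7043 CPM with control and 5174 CPM with GC (*C1qa* 4622 and 2754 CPM). There 6 of 11 had positive log2 values and only *Mrc1* was called, higher (against 6.42% of all genes). In tumors the part of macrophages in the *Slc40a1* values was not tested.

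*Cp*, the copper enzyme that oxidizes exported iron for loading onto transferrin, stood at 41.4, 41.7, 12.4, 35.4 and 22.2 CPM in parental control tumors and at 75.3, 60.7, 89.7, 94.2 and 64.2 CPM in parental GC tumors. In GR KO tumors it stood at 15.5, 10.5, 18.5, 23.6 and 23.6 CPM with control and at 25.0, 28.4, 25.2, 14.5 and 18.6 CPM with GC. All 5 parental GC tumors exceeded every other tumor, while the GR KO groups overlapped. With GC the log2 fold change of *Cp* was 1.33 (SE 0.281) in parental tumors and 0.32 (SE 0.278) in GR KO tumors.

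Leaving out each of the 10 parental tumors in turn, the *Cp* value ran from log2 1.14 to 1.47. Fibroblast markers summed to 7159 and 9666 CPM in parental control and GC tumors, with *Col3a1* the most abundant (2915 and 3531 CPM) and none of the 9 at 0. Of these markers 6 had positive and 3 negative log2 values with GC, and 0 were called (against 0.779% of all genes). Keratinocyte markers summed to 1765 and 2058 CPM in the same groups. Of 8, 5 had positive log2 values with GC, and edgeR called *Krt15* and *Lor* higher. The part of these cell types in the tumor values was not tested.

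Parental DMSO cells had 26.9, 29.8 and 30.0 CPM of *Cp*, and parental GC cells 65.5 and 61 CPM. GR KO cells had 1.94, 1.42 and 1.09 CPM with DMSO and 1.11, 1.89 and 0.50 CPM with GC. Both parental GC cultures were above the DMSO cultures, and every GR KO culture was below every parental one. GC gave log2 1.12 (SE 0.310) in parental cells and log2 -0.28 (SE 0.362) in GR KO cells. In the parental GC cultures the fibroblast markers *Pi16* and *Dpt* were at 0 and the list summed to 205 CPM, against 252 CPM with DMSO. In GR KO cells *Dcn*, *Lum* and *Dpt* were at 0 with either treatment, *Pi16* was at 0 with DMSO, and the list summed to 89.9 CPM with DMSO and 78.2 CPM with GC. Between genotypes in DMSO cells edgeR called 3 of 6 tested fibroblast markers (against 8.22% of all genes), all lower in GR KO cells. *Dcn* and *Lum* could pass the low-count filter only through parental cultures, where they are higher, so this share is no support. Their part in the *Cp* values was not tested.

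As a description of what selected it, *Cp* in GR KO against parental samples had log2 fold changes of -0.75 (SE 0.279) in control tumors, -1.77 (SE 0.284) in GC tumors and -4.29 (SE 0.341) in DMSO cells. The parental GC effect exceeded the GR KO effect by log2 1.01 (SE 0.393) in tumors and 1.40 (SE 0.478) in cells, the latter 1.96 without GR KO GC culture 2. Against DMSO cells, control tumors had a log2 fold change of 3.62 (SE 0.404) in GR KO, with all 5 tumors above all 3 cultures, and of 0.08 (SE 0.326) in the parental line. Between the control tumors 8 of 9 fibroblast markers had negative log2 values in GR KO and only *Col3a1* was called, lower (against 2.25% of all genes). Between the GC tumors 4 had positive and 5 negative log2 values and 0 were called (against 0.634% of all genes). Their sums there were 9666 CPM in parental and 9471 CPM in GR KO tumors. The part of fibroblasts in the *Cp* difference was not tested. The last 13201 bases of *Cp* overlap *Hps3* on the opposite strand, which had 14 to 231 counts per library. The strand setting of the counting is not given beyond default settings, so reads of the 2 genes may not be separated.

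**Figure D2:**
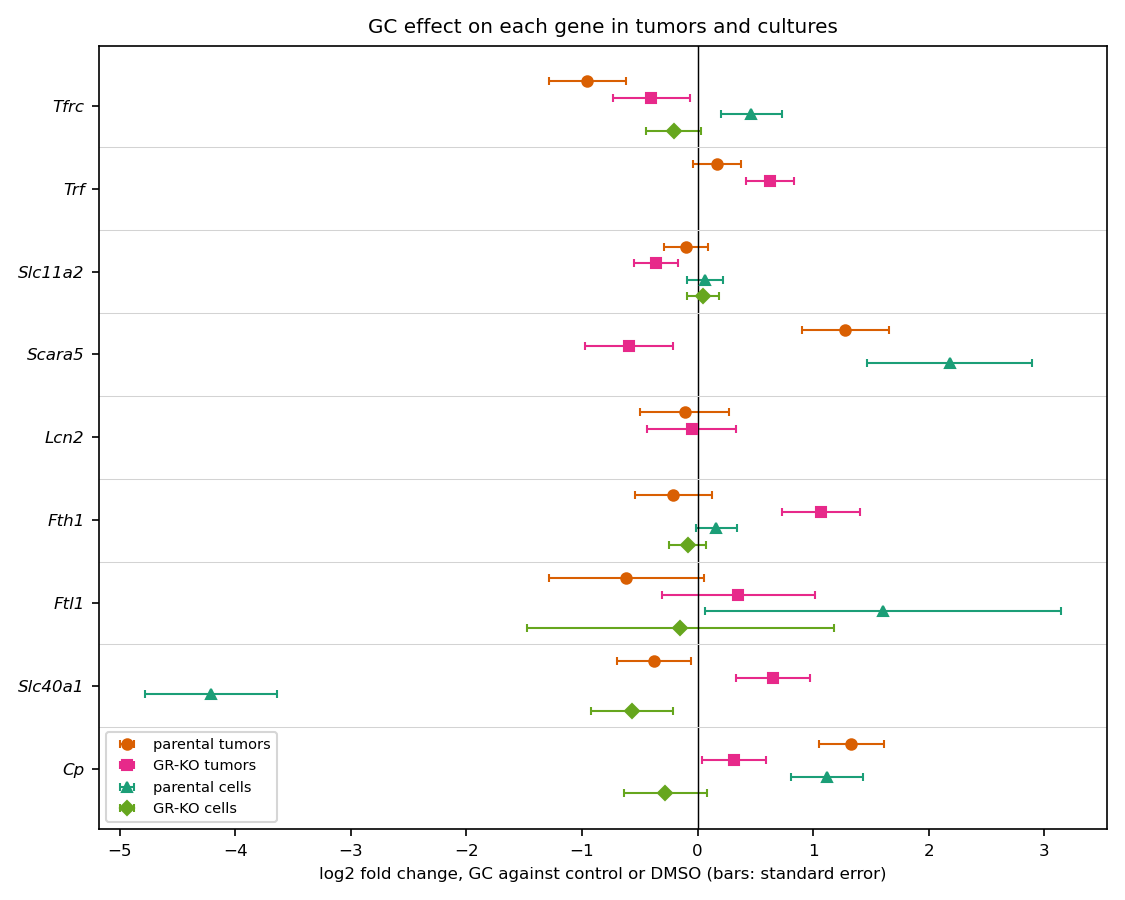
Log2 fold change with GC, against control in tumors and DMSO in cells, for each gene; points are fitted values and bars 1 SE, from 5 tumors per group and 2 or 3 cultures per group. *Cp* and *Scara5* lie above 0 in parental tumors and cells, and *Slc40a1* lies below 0 in parental cells, a value fitted on 1 and 2 counts in the GC cultures; *Lcn2* and *Trf* in cells and *Scara5* in GR KO cells, with too few counts, are not drawn.

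Ranked by group mean, *Slc40a1* was highest in GR KO GC tumors (18.5 ± 2.47 CPM, SD, n = 5), followed by parental control (12.9 ± 3.89), GR KO control (12 ± 4.12) and parental GC tumors (9.85 ± 5.16). Each group overlapped its neighbours in this order. For *Cp* the order was parental GC (76.8 ± 15), parental control (30.6 ± 12.9), GR KO GC (22.3 ± 5.62) and GR KO control tumors (18.3 ± 5.58), and only the first stood apart from its neighbour. *Scara5* followed the order parental GC (18.4 ± 5.54), parental control (7.60 ± 2.90), GR KO control (3.51 ± 1.88) and GR KO GC tumors (2.26 ± 0.863), in which only the first stood apart from its neighbour.

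The genes whose levels across the 20 tumors were most like these 3 were found by Pearson r of log2(CPM + 1) over 15919 genes, as a description. For *Slc40a1* they were *Aldh1a3* (r = 0.802), *Fmr1* (0.775), *Nme4* (0.743), *Prkd3* (0.684) and *Pias2* (0.673). For *Scara5* they were *Ccdc3* (0.905), *Tmem100* (0.869), *Pld5* (0.867), *Cp* (0.865) and *Micall1* (0.838), and for *Cp* they were *Ptgfr* (0.890), *Fam114a1* (0.872), *Scara5* (0.865), *Rgs2* (0.864) and *Peg10* (0.862). These values mix differences between groups with those within them. With group means subtracted, 1 of the 5 genes stayed among the 5 most like *Slc40a1* and 0 of 5 for *Scara5* and for *Cp*, and *Scara5* with *Cp* had r = 0.604.

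Other iron genes were read from 7 lists covering uptake, heme and hemoglobin uptake, storage, export, regulation, heme synthesis and breakdown, and mitochondrial iron, 70 genes with 67 in the file, the 9 included. Counts leave out *Slc40a1*, *Scara5* and *Cp*. With GC in parental tumors edgeR called 0 of 61 tested, beside 0.779% of all genes, with 6 at an unadjusted p under 0.05 and 3 called by DESeq2, and the median log2 fold change was -0.11 against 0.00 over all genes. With GC in GR KO tumors it called 1 of 61, *Hamp2*, a hepcidin gene, beside 6.42% of all genes (12 and 3), with a median of 0.10 against 0.05. Over all 15919 genes, 2249 and 3893 were at an unadjusted p under 0.05 with GC in parental and GR KO tumors. DESeq2 called 378 and 1779. *Hamp2* had 20, 7, 2, 21 and 0 counts in GR KO control tumors and 0 in all 5 GC tumors, at least 20.2-fold lower with 3 counts over the group as floor. It reached 0.5 CPM in control tumors alone and entered the test through them, so the call is no support.

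For the difference of GC effects in tumors, edgeR called 0 of 61 iron genes (9 at an unadjusted p under 0.05, 1 by DESeq2), against 0.195% of all genes. Between genotypes it called 0 of 61 in control tumors (8 and 2) and 0 of 61 in GC tumors (7 and 3). Of all genes, edgeR called 2.25% and 0.634% there. Over all 15919 genes, 3192 were at an unadjusted p under 0.05 for the difference, 3180 between control tumors and 1816 between GC tumors. DESeq2 called 817, 1004 and 289 in the same order. In cells edgeR called 0 of 46 for GC in parental cells (10 and 2), in GR KO cells (0 and 0) and for the difference (7 and 0). Over all 12525 genes it called 0.878%, 0.00% and 0.295%. At an unadjusted p under 0.05 were 1062, 237 and 1075 of them, and DESeq2 called 251, 0 and 128.

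Between GR KO and parental DMSO cells 5 of 46 iron genes passed, 10.9% against the 8.22% of all genes. Of these, *Bmp2*, a growth factor that induces hepcidin in liver, was lower in GR KO cells (log2 -3.71, SE 0.523, edgeR adjusted p = 0.00111), as was *Steap1*, of a metalloreductase family (log2 -0.65, SE 0.150, adjusted p = 0.0196). The other 3 passed the low-count filter only through the genotype where they are high and are given as counts. *Slc39a8*, an importer of zinc and iron, had 34, 29 and 27 counts in GR KO and 0, 2 and 0 in parental DMSO cells. *Fam132b*, which encodes the hormone erythroferrone, had 24, 21 and 32 counts in GR KO and 2, 0 and 3 in parental DMSO cells. *Hp*, the hemoglobin-binding haptoglobin, had 5, 13 and 17 counts in parental and 0 in GR KO DMSO cells, at least 13.8-fold lower.

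Tumors and cultures differed in 34 of 62 iron genes in the parental line, 23 higher and 11 lower in tumors, and in 38 of 62 in GR KO, 22 higher and 16 lower. These are 54.8% and 61.3%, beside 46.7% and 54.8% of all genes, and nothing particular to iron genes is read from them. The medians were log2 0.38 and -0.17, against 0.37 and 0.33 over all genes. Setting genes with a group at 0 to their bound left both medians as they were. Besides the 9 genes, the 10 smallest adjusted p-values in the parental line included *Hfe*, a partner of the transferrin receptor (log2 4.81, SE 0.404), *Hp* (log2 6.99, SE 0.438) and *Bmp2* (log2 3.50, SE 0.350), all higher in tumors, and the heme transporter *Slc48a1* (log2 -3.09, SE 0.281), lower in tumors.

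A further list of 7 targets of the stress factor NRF2, which also acts on ferritin and ferroportin genes, was read beside the iron genes. It shares *Hmox1* with them. In parental cells GC changed 1 of 7, beside 0.878% of all genes: *Gclc*, which makes the precursor of glutathione, had 21.2, 24.8 and 23.5 CPM with DMSO against 71.1 and 63.8 CPM with GC. Both GC cultures were well above the DMSO cultures (log2 1.53, SE 0.134, edgeR adjusted p = 0.000174), and this effect differed from that in GR KO cells (log2 1.61, SE 0.180, adjusted p = 0.00275; 0.295% of all genes called). Of the 7 genes, 2 had positive and 5 negative log2 values with GC in parental cells (median -0.21). *Nqo1*, of the same list, had log2 -0.86 with GC in parental cells (SE 0.216, edgeR adjusted p = 0.128). In tumors edgeR called 0 of 7 for GC in the parental line and 0 of 7 in GR KO, against 0.779% and 6.42% of all genes. Mean *Gclc* was 15.1 CPM in parental control and 15.7 CPM in parental GC tumors. *Gclc* (log2 0.85, SE 0.122, edgeR adjusted p = 0.00126) and *Nqo1* (log2 0.70, SE 0.187, adjusted p = 0.0382) were both higher in GR KO than in parental DMSO cells, 2 of 7 beside 8.22% of all genes. All 7 had positive log2 values in that comparison (median 0.70).

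The stem-loops to which iron regulatory proteins bind are shown for the members of this group in which a search for a fixed motif found them. Stem-loops that depart from the motif were not sought, so a gene without a match may still carry one. Transcripts were searched for the loop CAGTGN with N not G, 5 stem pairs with G:U allowed, and an unpaired C 5 bases before the loop, on the transcript strand only. The motif was found in 4 of the 9 genes and in 222 of 21901 protein-coding genes (1.01%), by GENCODE M21 on GRCm38. A match is a description of letters and says nothing of binding in these cells. *Slc40a1*, *Ftl1* and *Fth1* hold 1 in the 5′ UTR in exon 1, and *Tfrc* holds 4 in the 3′ UTR in exon 19, 26 bases each, with the loop in capitals.
Slc40a1 5′ UTR, chr1:45925468-45925493 (minus strand): caacttcagctaCAGTGTtagctaag
Ftl1 5′ UTR, chr7:45459782-45459807 (minus strand): gtcttgcttcaaCAGTGTttgaacgg
Fth1 5′ UTR, chr19:9982732-9982757 (plus strand): ttcctgcttcaaCAGTGCttgaacgg
Tfrc 3′ UTR, chr16:32631219-32631244 (plus strand): aattatcggaagCAGTGCcttccata
Tfrc 3′ UTR, chr16:32631598-32631623 (plus strand): cattatcgggagCAGTGTcttccata
Tfrc 3′ UTR, chr16:32631663-32631688 (plus strand): ctatatcggagaCAGTGAtctccata
Tfrc 3′ UTR, chr16:32631710-32631735 (plus strand): aattatcgggaaCAGTGTttcccata

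Of the other 5 genes, *Cp* lies on chromosome 3 at 19957054 to 20009145, *Scara5* on chromosome 14 at 65666403 to 65764826, *Lcn2* on chromosome 2 at 32384633 to 32388252, *Slc11a2* on chromosome 15 at 100387898 to 100425072 and *Trf* on chromosome 9 at 103204001 to 103230444 (GRCm38). *Trf* overlaps the gene model *Gm20425* on the same strand, which had 0 counts in every library. *Slc11a2* overlaps *Gm5475* on the opposite strand at its 5′ end (0 to 35 counts). Apart from *Ftl1*, no member had a near-identical copy by the search of transcript ends.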

How the data were processed

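The authors trimmed reads with Trim Galore 0.6.5, aligned them to GRCm38 with STAR 2.6.1d and deposited counts per gene from featureCounts with Ensembl release 75; the submitters' processing notes also name edgeR, DESeq2 and mm10. The strand setting is not given beyond default settings, and the featureCounts version is not given in the sources used here. Genes needed 0.5 CPM in 3 or more samples of a fit. Fits used edgeR 4.0.16 (R 4.3.3) with TMM factors and group means, and a call needed an adjusted p under 0.05 and a fold change of 1.5. Samples are separate tumors or cultures as far as the labels state, and p-values measure the spread between them. The library names of all cultures carry the same date and a letter. Whether these cultures came from separate experiments is not stated, so their p-values may measure only the spread within 1 experiment. Pairs within a group differed by a mean chi-square per gene of 8.60 to 435.

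The members and lists were chosen with earlier results of these data known. Named were the members, *Nr3c1*, *Tsc22d3*, called genes of the iron lists (at most 10 per contrast), leading markers and those at 0, and the 5 genes most like *Slc40a1*, *Scara5* and *Cp*. *Gclc*, *Nqo1* and overlapping genes were named after their values were seen. Near copies were sought with blastn 2.17.0 in the last 300 bases of transcripts, and 37607 gene identifiers are in GENCODE M21. Alternatives were DESeq2 1.42.0, its size factors, other filters, the replicate block, fits of 2 groups, no minimum fold change, a pseudocount of 0.1, group means subtracted and leaving out each sample. 1 marker list is not reported here. The steps were tested on simulated data.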

Additional observations from a re-analysis of the deposited data

Results flagged for a closer look

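Among 36 sets of 5 tumors (each of the 9 genes in each of the 4 groups), 3 held a sample far from the others, where chance gives about 1 in 20. *Ftl1* stood at 13.4 CPM in GR KO GC tumor 5 and next at 2.07 CPM, and that tumor also had the most counts on near copies of *Ftl1* of any tumor, 141. *Scara5* stood at 27.9 CPM in parental GC tumor 4 and next at 17.8 CPM. *Slc11a2* stood at 45.1 CPM in GR KO GC tumor 4 and next at 30.8 CPM. The causes were not tested.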

How the results depend on the processing

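Values of *Slc40a1*, *Scara5* and *Cp* are descriptions and are left out of the counts here. Over 58 pairs of one of the other 6 genes and a comparison, 969 values under an alternative were computed. Of these, 955 kept their side of the threshold, 14 passed newly, 0 no longer passed and 0 called values reversed; 42 values, none of them called, changed sign.

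Of the 6 genes, DESeq2 called 2 for GC in GR KO tumors against 0 by edgeR (*Trf* and *Fth1*), and 1 against 0 each for genotype under GC (*Trf*) and between DMSO cells (*Tfrc*). At least 10 counts in every sample gave 2 for GC in GR KO tumors, and 2 in each comparison of tumors with cultures against 4 and 5, since fewer genes are then tested. Between DMSO cells, no filter gave 1 and the filter of 2 samples, chosen after seeing the data, gave 1 (*Trf*, which passes it only through the group where it is high). Parental tumors against cultures gave 5 when fitted on 2 groups alone (with *Ftl1*) or with no minimum fold change (with *Slc11a2*). Leaving out each sample gave 0 to 1 for GC in GR KO tumors and for genotype under GC, 4 to 5 and 5 to 5 for tumors against cultures, and 0 to 0 elsewhere.

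With the replicate block 1 of the 6 was called for GC in GR KO tumors (*Fth1*), and no other call of theirs changed. Over all genes the replicate block gave 144 against 31 for the difference in tumors, 160 against 101 for genotype under GC and 63 against 110 in parental cells. Same-numbered samples correlated in their deviations with a mean r of 0.0577 over 30 pairs of tumors (-0.545 to 0.414) and 0.0193 over 15 pairs of cultures (-0.521 to 0.591), so the numbers were not taken to pair samples.

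Over all genes DESeq2 called 378 against 124 and 1779 against 1022 for GC in parental and GR KO tumors, 817 against 31 for their difference, 1004 against 358 and 289 against 101 for genotype with control and GC, 251 against 110 for GC in parental cells and 128 against 37 for the difference in cells. Fits of 2 groups gave 391 against 1022, 159 against 358 and 59 against 110. At least 10 counts gave 66 against 31, 661 against 1030, 4431 against 7595 and 5081 against 8917, and no filter 49 against 31 and 64 against 37. Leaving out 1 sample gave 60 to 178, 303 to 2411, 0 to 1284, 61 to 1762 and 40 to 114 in tumors, 31 to 78, 17 to 43 and 594 to 916 in cells. The cause was not tested. Depth limits *Slc40a1*, *Scara5*, *Lcn2* and *Trf* in cultures, where groups held few counts or 0.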
